A study of Mus musculus with 12 samples.

Results

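The transcription factors described here are 10 genes. They are Runx1 and its binding partner Cbfb, the ETS factors Fli1, Erg, Ets1, Ets2, Etv6, Gabpa and Elf1, and the zinc finger gene Ikzf5. They were picked by name, and each was found on the array as 1 probe set with that gene symbol only, so the 10 genes are 10 of 30142 named genes. Their RNA was measured in mouse megakaryocytes, the bone marrow cells that shed platelets, grown from bone marrow stem cells of male C57BL/6 mice. The cells spent 3 days in thrombopoietin at 100 ng/ml and a night in medium with 10% charcoal-stripped serum, and were then isolated on day 4 over an albumin gradient. Cells of each culture were then exposed for 6 h to vehicle or to dexamethasone at 100 nM, a glucocorticoid drug, which gave 6 vehicle and 6 dexamethasone arrays. A culture is called below by its replicate number; for numbers 1, 2, 3, 4, 5 and 6 the culture numbers in the labels are 1, 4, 5, 6, 7 and 8. The labels name no genetic change, and both groups saw the same thrombopoietin and stripped serum. The sources used here do not say whether separate mice gave the cultures. Except where pairing is dropped, the p-values rest on how the dexamethasone minus vehicle difference varied from culture to culture. Those from limma, and its SE values, also draw on the variance of all genes fitted, so they do not measure that spread alone.

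RUNX1 binds DNA through its Runt domain and does so far better when paired with CBFB, which has no DNA contact of its own. ETS factors share a winged-helix domain that reads a GGAA core. In megakaryocytes RUNX1, FLI1 and GATA1 sit together on the enhancers of platelet genes, FLI1 drives late platelet glycoprotein genes, and ETV6 acts as a repressor. Inherited defects of RUNX1, FLI1, ETV6 or IKZF5 in people cause low platelet counts.

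After 6 h of dexamethasone, Ets1 fell, Elf1 fell slightly, Ets2 rose from a very dim signal, and the other 7 genes did not pass the test. In log2 terms Ets1 changed by -0.47 (SE 0.05), Elf1 by -0.17 (SE 0.04) and Ets2 by 0.34 (SE 0.07). The factors best known in megakaryocytes, Runx1, Fli1, Etv6 and Gabpa, showed differences between -0.10 and 0.06. The test was limma with culture as a block over 24265 genes, and a gene was called at a Benjamini-Hochberg adjusted p under 0.05. Of the 10 genes, 1 was called higher and 2 lower, beside 12.0% of all genes tested called in either direction, 7.39% higher and 4.56% lower. A separate limma fit, adjusted over its own genes, took the 13050 above the negative control median of their array on at least 6 arrays. It called 26.3% of them (16.8% higher, 9.48% lower), and 2 of the 9 transcription factors in that range, both lower. Its 3427 calls exceeded the 2900 among the 24265 genes, so the larger share does not reflect brightness alone. In either direction the share called among these 9 was 22.2%, near the 26.3% of that range, which sets only a lower limit on brightness. By direction 0 of the 9 were higher and 2 lower, too few calls to read a direction from. That range leaves out Ets2, the gene called higher. The balance of directions over all genes tested also depended on the scaling. It was 1794 higher and 1106 lower as deposited, and 1417 and 1738 after quantile normalization. The median change of the 10 was -0.06, against -0.01 for all genes tested and 0.03 for the 13050 genes. Fewer cells of a type and less RNA per cell cannot be told apart in such bulk samples.

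**Figure D1:**
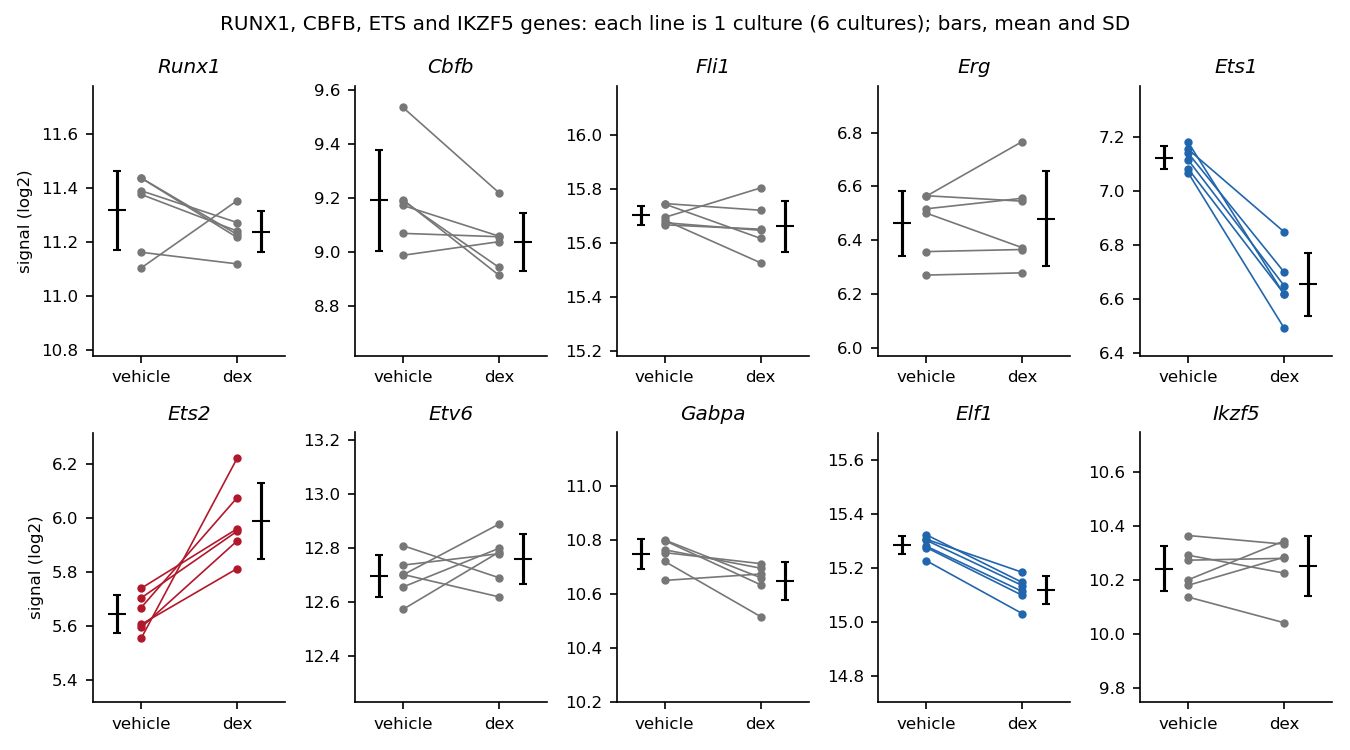
Log2 signal of each gene on the vehicle and dexamethasone arrays, with 1 line per culture (6 cultures) and the mean and SD of each treatment beside the points; every panel spans 1 log2 unit. All 6 lines fall for Ets1 and Elf1 and rise for Ets2, while the lines of the other 7 genes (grey) go both ways.

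Array medians lay between 5.57 and 5.67, and r between arrays of like treatment was 0.990 to 0.994 over all probe sets. The treatment labels were checked on Tsc22d3 and Fkbp5, which are induced by glucocorticoids in most cells and were higher by 2.48 and 2.37 in 6 of 6 cultures (limma adjusted p = 7.49e-08 and 7.52e-07). The receptor gene Nr3c1 was 9.04 ± 0.07 and 8.87 ± 0.06 (log2, SD, n = 6; adjusted p = 0.0527). Of 9 megakaryocyte markers with a probe set of their own, 9 exceeded the negative control median on each of the 12 arrays, so the cell label fitted its markers. Of these 9, 1 was called higher, 1 lower and 7 did not pass, with a median change of 0.03, beside 12.0% of all genes called. Tubb1, the tubulin of the platelet marginal band, was the lower one. It went from 13.38 ± 0.39 to 12.24 ± 0.47 (log2, SD, n = 6), a fall of 1.14 (SE 0.06, adjusted p = 4.71e-06) in 6 of 6 cultures. Gp9 was the higher one, by 0.44 (SE 0.06, limma adjusted p = 0.00143).

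The RUNX core letters TGTGGT and the glucocorticoid receptor hexamer AGAACA were searched on both strands in RefSeq promoter windows, which run from 250 bases before to 50 after a gene's start (build GRCm38.p6), together with the ETS consensus CCGGAAGT, the GATA motif AGATAA and the palindromic glucocorticoid receptor element. Windows were found for 8 of the 10 genes, 12 windows in all. Ets1 and Fli1 had none in that table. Shown are the windows of Ets2 and of the upstream Elf1 start, genes that changed, and the distal window of Runx1, the only one of the 12 with a RUNX core. Lower case letters are unmatched and capitals mark a motif match.

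Ets2, chr16:95702157-95702456, plus strand: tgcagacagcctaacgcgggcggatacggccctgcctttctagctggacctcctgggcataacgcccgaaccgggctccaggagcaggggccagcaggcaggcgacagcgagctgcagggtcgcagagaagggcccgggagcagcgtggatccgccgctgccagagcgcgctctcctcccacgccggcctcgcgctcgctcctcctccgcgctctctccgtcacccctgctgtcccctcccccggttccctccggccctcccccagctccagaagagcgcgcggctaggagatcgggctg

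Elf1, chr14:79480944-79481243, plus strand: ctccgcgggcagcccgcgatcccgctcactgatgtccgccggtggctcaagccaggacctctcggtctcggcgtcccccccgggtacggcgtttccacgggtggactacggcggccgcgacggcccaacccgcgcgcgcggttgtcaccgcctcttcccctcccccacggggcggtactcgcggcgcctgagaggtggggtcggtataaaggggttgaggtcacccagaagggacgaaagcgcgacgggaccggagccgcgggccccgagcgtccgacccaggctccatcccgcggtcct

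Runx1 distal start, chr16:92826025-92826324, minus strand: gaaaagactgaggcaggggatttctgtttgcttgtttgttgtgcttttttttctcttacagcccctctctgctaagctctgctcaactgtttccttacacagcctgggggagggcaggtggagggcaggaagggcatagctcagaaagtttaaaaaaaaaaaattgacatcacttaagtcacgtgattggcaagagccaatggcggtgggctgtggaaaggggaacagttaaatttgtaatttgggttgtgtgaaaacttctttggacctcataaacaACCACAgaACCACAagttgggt

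No letters of the 5 motifs were found in the Ets2 window or in either of the Elf1 windows. The Runx1 distal window held 2 RUNX cores as ACCACA, 28 and 36 bases past the start. Across the 12 windows, 1 held a RUNX core, against 16.8% of all 32851 windows. The glucocorticoid receptor hexamer was in 1 of 12, an alternative start of Erg, against 19.0% of all windows, and the GATA motif in 1 of 12, another Erg start, against 11.2%. None of the 12 held the ETS consensus, found in 3.89% of windows, or the palindrome, found in 0.00913%. These matches describe letters in short windows and say nothing of where the receptor or the factors were bound.

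Runx1, the DNA-binding subunit of the core binding factor, ran from 11.10 through a median of 11.38 to 11.44 on vehicle arrays and from 11.12 through 11.23 to 11.35 on dexamethasone arrays. Vehicle cultures 2 and 3 were the low ones at 11.16 and 11.10, and the treatments overlapped. The difference was -0.08 (SE 0.07, adjusted p = 0.482), lower in 5 of 6 cultures, with culture 3 going the other way by 0.25. Its 95% interval ran from -14.7 to 5.00% on the linear scale. Cbfb, the subunit that stabilises RUNX1 on DNA, ran from 8.99 through 9.18 to 9.54 in vehicle and from 8.91 through 9.05 to 9.22 in dexamethasone. Culture 5 was the highest in both treatments. Cbfb was lower in 5 of 6 cultures, by 0.15 on average (-0.15, SE 0.06), and did not pass (adjusted p = 0.146, 95% interval -0.29 to -0.02 before adjustment). The changes of Runx1 and Cbfb differed by 0.07 ± 0.27 (SD, n = 6 cultures), with an exact sign-flip p of 0.656.

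Fli1, the ETS factor of late megakaryocyte genes, lay above the 95th percentile of the negative controls on all 12 arrays. Its values were tight: 15.67, 15.69 and 15.75 were the lowest, median and highest vehicle values, and 15.53, 15.65 and 15.80 the dexamethasone values. Its difference of -0.04 (SE 0.05, adjusted p = 0.626) had a 95% interval from -9.91 to 4.88%. Erg, its closest relative, which maintains blood stem cells, was dim, from 6.27 through 6.51 to 6.57 in vehicle and from 6.28 through 6.46 to 6.77 in dexamethasone. It lay above the negative control median on 11 of 12 arrays. Its spread came from the cultures: culture 2 was the lowest in both treatments and culture 5 was the highest in dexamethasone. The difference was 0.02 (SE 0.05, adjusted p = 0.850), higher in 4 of 6 cultures, and its 95% interval ran from -6.50 to 9.69%. Fli1 and Erg did not differ in their change beyond the spread of the cultures (-0.06 ± 0.17, SD, n = 6, exact sign-flip p = 0.50).

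Ets1, the founding ETS factor, a lymphoid and endothelial regulator also found in megakaryocytes, moved most. Its lowest, median and highest values were 7.07, 7.13 and 7.18 in vehicle and 6.49, 6.63 and 6.85 in dexamethasone. The treatments did not overlap, which held for 6.73% of all genes tested, and the 6 culture differences had the same sign, as they did for 19.5% of all genes, and ran from -0.57 to -0.31. The fall of 0.47 (log2 change -0.47, SE 0.05) is 1.38-fold, with an adjusted p of 0.000357. Vehicle cultures were tight, with an SD of 0.04 against 0.12 in dexamethasone, and culture 3 fell least. Ets1 lay above the negative control median on all 12 arrays but below the 95th percentile of these controls on all 12.

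Ets2, a relative of Ets1 that responds to growth factor signalling, went up. Values ran from 5.56 through 5.64 to 5.74 in vehicle and from 5.81 through 5.96 to 6.22 in dexamethasone, with no overlap. It was higher in 6 of 6 cultures, by 0.21 to 0.67, and culture 6 rose most. The mean difference was 0.34 (SE 0.07), a 1.27-fold rise with an adjusted p of 0.0109. Every one of the 12 values lay below the negative control median of its array, which was between 6.15 and 6.39, so this is a rise within the range of background signal and whether the cells held Ets2 RNA was not tested.

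Elf1, an ETS factor of blood and endothelial genes, lay above the 95th percentile of the negative controls on all 12 arrays. Its values were 15.23, 15.29 and 15.32 (lowest, median, highest) in vehicle and 15.03, 15.13 and 15.19 in dexamethasone, again without overlap. The culture differences were alike, from -0.20 to -0.12. The change of -0.17 (SE 0.04, adjusted p = 0.0257) is a 1.12-fold fall. This SE and p draw on the variance of all genes fitted as well as on the spread of these differences. The call was lost under 7 of 17 other settings, with adjusted p up to 0.0821, while the change stayed between -0.22 and -0.15; leaving out culture 1, 3, 4, 5 or 6 gave adjusted p of 0.0616, 0.0718, 0.0750, 0.0633 and 0.0695.

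**Figure D2:**
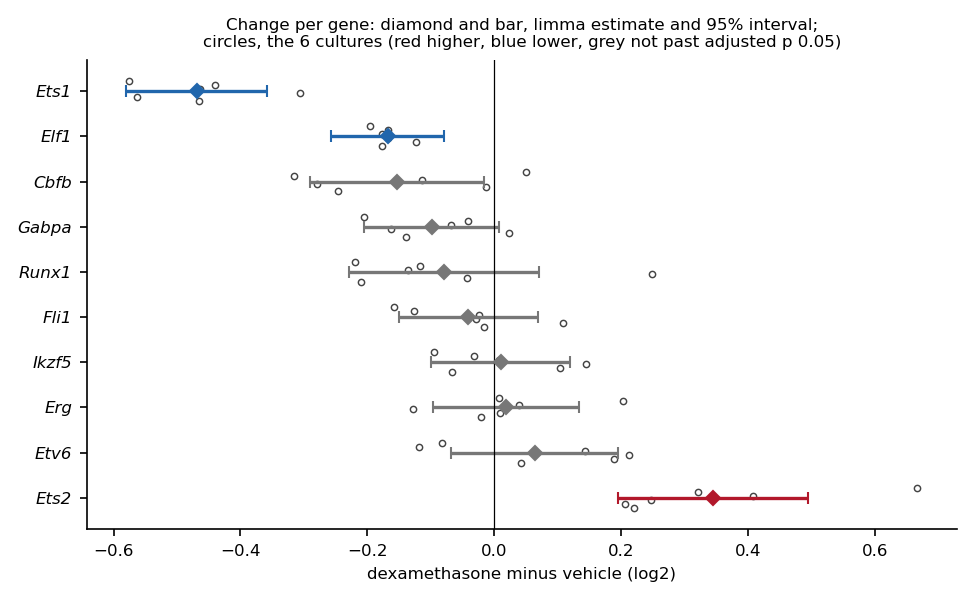
Dexamethasone minus vehicle (log2) for each gene, with the limma estimate and its 95% interval as diamond and bar and the 6 cultures as circles. Ets1 (-0.47) and Elf1 (-0.17) lie below 0 in every culture and Ets2 (0.34) above 0 in every culture; the circles of the other 7 genes fall on both sides of 0.

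Etv6, a repressor needed for megakaryocytes to mature, ran from 12.57 through 12.70 to 12.81 in vehicle and from 12.62 through 12.78 to 12.89 in dexamethasone. It was higher in cultures 1 to 4 and lower in cultures 5 and 6, a mean difference of 0.06 (SE 0.06, adjusted p = 0.524, 95% interval -4.60 to 14.5%). Gabpa, the ETS subunit of the GABP complex, which serves mitochondrial and housekeeping genes as well as early megakaryocyte genes, ran from 10.65 through 10.76 to 10.80 and from 10.52 through 10.67 to 10.71. It was lower in 5 of 6 cultures, by -0.10 on average (SE 0.05, adjusted p = 0.218), and passed only under quantile normalization (change -0.16, adjusted p = 0.0377) among 17 other settings. Its beta subunits Gabpb1 and Gabpb2, which carry the activation function, differed by -0.14 and 0.03 and did not pass (adjusted p = 0.138 and 0.725). Ikzf5, the Ikaros-family factor Pegasus, ran from 10.14 through 10.24 to 10.36 and from 10.04 through 10.28 to 10.34. It was higher in 3 cultures and lower in 3, and the mean difference was 0.01 (SE 0.05, adjusted p = 0.915, 95% interval -6.68 to 8.68%).

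The position of the genes was of use for a direct comparison, because Fli1 and Ets1 are neighbours on chromosome 9 and Erg and Ets2 are neighbours on chromosome 16, with 0 protein-coding genes between each pair in RefSeq GRCm38.p6. Runx1, Erg, Ets2 and Gabpa, 4 of the 10, share chromosome 16. Within the first pair the change of Ets1 (-0.47) lay 0.43 below that of Fli1 (-0.04), in 6 of 6 cultures (difference -0.43 ± 0.14, SD, n = 6). Within the second Ets2 changed by 0.33 more than Erg (0.33 ± 0.19), in 6 of 6 cultures, and Ets1 changed by -0.81 ± 0.23 relative to Ets2, also in 6 of 6. Both differences with Ets2 in them rest on a probe set that no array showed above the median of its negative controls. They compare signals and, under either test, say nothing of Ets2 RNA. Each of these 3 comparisons had an exact sign-flip p of 0.03125, two-sided, the smallest that 6 cultures allow. After adjustment over the 5 gene pairs compared it was 0.0521, which does not pass. With 3 of the 5 pairs at that floor the adjusted p could not be lower, so the paired test could not have called them. Without pairing by culture, an exact permutation test gave adjusted p of 0.00541 for Ets1 against Fli1 and for Ets1 against Ets2, and 0.0216 for Ets2 against Erg. The pairing it drops is part of the treatment protocol, so these values do not replace the paired result.

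Among other ETS factors, 3 of 13 tested rose and 1 fell, and 9 did not pass, beside 7.39% of all genes called higher and 4.56% lower; the median change was -0.04. The direction of the count depended on the scaling: quantile normalization gave 1 higher and 2 lower in this list, and turned 10 higher and 6 lower calls over the 6 lists of other genes into 7 and 12. Etv3 and Erf, which encode ETS repressors, were higher by 0.28 (SE 0.06, adjusted p = 0.0212) and 0.24 (SE 0.07, adjusted p = 0.0437), and Elf4, which keeps resting CD8 T cells quiescent, by 0.28 (SE 0.07, adjusted p = 0.0279), each in 6 of 6 cultures. Elk1, a ternary complex factor that works with SRF on growth factor genes, fell by 0.21 (-0.21, SE 0.05, adjusted p = 0.0217). Its relatives Elk3 (-0.23, adjusted p = 0.0637) and Elk4 (0.11, adjusted p = 0.298) did not pass, nor did Elf2 (0.13, adjusted p = 0.147) or Etv5 (-0.01, adjusted p = 0.910). These 8 were the only ones of the 16 with a probe set of their own that exceeded the negative control median on each of the 12 arrays, and the other 8, among them Elf3, Elf5, Ehf and Spib, were below it on every array. The calls were fragile: none of the 4 was kept without culture 3 or when all probe sets were fitted together. The count was 1 without culture 2 or 4, 2 without culture 1 or 6 and 3 without culture 5. Filters on dim genes raised it, to 5 of 9 above the 50th percentile. In the fit of genes above the negative control median on at least 6 arrays, 5 of 8 were called, 3 higher and 2 lower. Of all genes in that fit, 26.3% were called. Ikaros relatives gave 0 of 3 called by limma. At an unadjusted limma p under 0.05, 1 was higher and 1 lower, beside 14.9% and 11.8% of all genes tested. The count depended on the filter, as 2 of 2 were called in the fit above the negative control median, 1 higher and 1 lower. Ikzf1 was higher by 0.17 (adjusted p = 0.0714) and Ikzf2 lower (-0.18, adjusted p = 0.0879).

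Of 20 RUNX relatives and cofactors tested, 1 rose, 3 fell and 16 did not pass, with a median change of -0.003. Beside these calls, 7.39% of all genes tested were called higher and 4.56% lower. The fit of genes above the negative control median on at least 6 arrays called 5 of the 20, 1 higher and 4 lower. That fit called 26.3% of all its genes. Tle1, a Groucho corepressor that RUNX1 recruits, fell by 0.26 (-0.26, SE 0.05, adjusted p = 0.0113). It did not overlap between treatments, as held for 6.73% of all genes tested, and the call was kept under all 17 other settings. Hdac1, a deacetylase of corepressor complexes, changed by -0.20 (adjusted p = 0.0410) and the arginine methyltransferase Prmt1, which modifies RUNX1, by -0.16 (adjusted p = 0.0498). The acetyltransferase Ep300, a coactivator, was higher by 0.17 (adjusted p = 0.0480). These last 3 calls were lost under 10, 11 and 9 of 17 other settings. Runx3, the other RUNX gene with a value, was 11.90 ± 0.33 in vehicle and 11.86 ± 0.25 in dexamethasone (adjusted p = 0.601), and the ETO family genes Cbfa2t2, Cbfa2t3 and Runx1t1 did not pass.

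**Figure D3:**
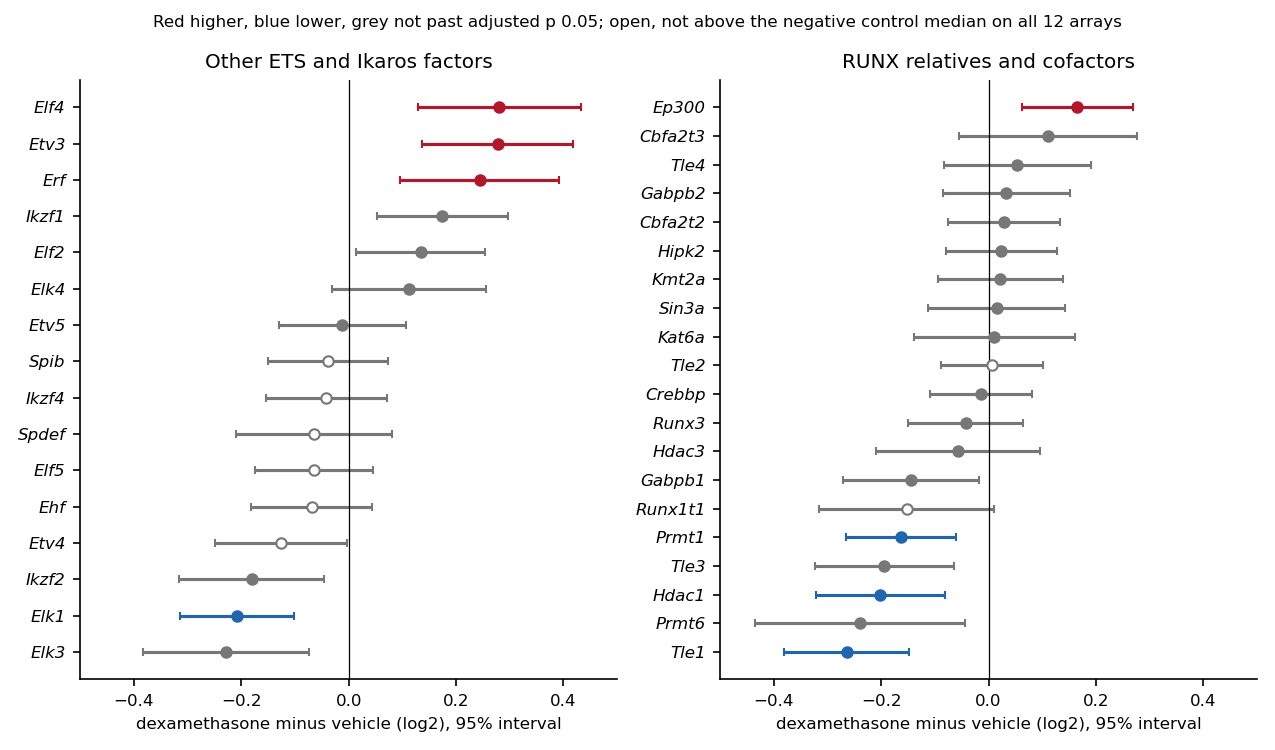
Dexamethasone minus vehicle (log2) with 95% interval for the tested ETS and Ikaros relatives (left) and RUNX relatives and cofactors (right); filled points lie above the negative control median on all 12 arrays. Elf4, Etv3, Erf and Ep300 rose and Elk1, Prmt1, Hdac1 and Tle1 fell, with all changes within 0.3 of 0.

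Platelet genes reported to respond to RUNX1, mostly in human platelets and cell lines, rose in 3 of 11 cases and fell in none, and 8 did not pass; the median change was 0.14. At an unadjusted limma p under 0.05, 6 were higher and 0 lower, beside 14.9% and 11.8% of all genes tested. F13a1, the subunit of coagulation factor XIII, rose by 0.50 (SE 0.05), the myosin light chain gene Myl9 by 0.44 (SE 0.07) and the platelet lipoxygenase gene Alox12 by 0.19 (SE 0.04), each in 6 of 6 cultures (limma adjusted p = 0.000239, 0.00325 and 0.0197). Myh10, which RUNX1 silences as megakaryocytes mature, was at background, below the negative control median on every array, at 5.34 ± 0.05 and 5.34 ± 0.05. The Alox12 call was lost under 7 of 17 other settings. Genes with reported ETS control, a list that shares Pf4 and Nfe2 with the former, rose in 2 of 9 cases and fell in none by limma (5 higher and 1 lower at an unadjusted p under 0.05), with a median change of 0.14. Gp9, a subunit of the von Willebrand factor receptor, was higher by 0.44 (SE 0.06, adjusted p = 0.00143) and Clec1b, the podoplanin receptor CLEC-2, by 0.24 (SE 0.04, adjusted p = 0.00756). Itga2b (0.14), Gp6 (0.16) and Gp5 (-0.12) did not pass. Where only genes above the negative control median on at least 6 arrays were fitted, 4 of 10 tested genes of the RUNX1 list and 3 of 9 of the ETS list were called, all higher, beside 16.8% of all genes in that fit called higher. Whether either list stands apart from other genes was not tested.

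Of 10 tested genes of the ERK cascade, whose kinases phosphorylate ETS1, ETS2 and ELK1, 1 rose, 2 fell and 7 did not pass. Of all genes tested, 7.39% were called higher and 4.56% lower. In the fit of genes above the negative control median on at least 6 arrays, 4 of the 10 were called. Of all genes in that fit 26.3% were called. Spred2, an inhibitor of Raf activation, fell by 0.43 (-0.43, SE 0.04, adjusted p = 0.000277), and Dusp6, the ERK phosphatase that ERK itself induces, fell by 0.35 (-0.35, SE 0.06, adjusted p = 0.00567). Neither overlapped between treatments, as held for 6.73% of all genes tested. The scaffold Ksr1 rose by 0.26 (SE 0.06, adjusted p = 0.0266), a call lost under 4 of 17 other settings (adjusted p up to 0.0829), while those of Spred2 and Dusp6 were kept under all 17. The other 3 feedback genes tested, Spry1, Spry2 and Spred1, did not pass.

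Across the 12 arrays the signal of Ets1 was most like that of Atic, an enzyme of purine synthesis, with a Pearson r of 0.971, followed by the methyltransferase gene Carm1 (0.967), Mllt3 (0.964), the activation marker Cd69 (0.962) and Phip (0.961). Their changes were -0.70, -0.18, -0.40, -0.81 and -0.33. For Ets2 the nearest were Glmp, a lysosomal membrane protein gene (0.953), 9330136K24Rik (0.945), the Mediator subunit gene Med9 (0.935), the Fc receptor chain gene Fcer1g (0.935) and Gm13597 (0.934), all of which were higher. These r values are over all tested genes ranked for likeness, share the same arrays and treatment, and are a description only.

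Markers of other cells that use these factors were read beside the changes. Of all genes tested, 12.0% were called. Of 7 lymphocyte markers with a probe set of their own, 5, among them Cd3e and Cd79a, were below the negative control median throughout, and 1, Il7r, rose. Their mean signal was 5.38 to 5.77 on vehicle and 5.45 to 5.61 on dexamethasone arrays. Of 7 endothelial markers, Cdh5, Emcn and Robo4 were below it throughout, Kdr fell (-1.01), Esam rose (0.43) and the other 5 did not pass. Their mean signal was 8.01 to 8.15 and 7.92 to 8.03, lower in 6 of 6 cultures by 0.10 on average (-0.10). That mean includes Kdr, the largest change of the 7, and the median change was -0.05. Neutrophil markers were lower in dexamethasone for 4 of 8 and higher for 1, with a mean signal of 7.16 to 8.34 and 6.64 to 8.06, lower in 6 of 6 cultures. That mean includes S100a8 and S100a9, bright and uneven at 12.36 ± 1.19 and 12.54 ± 1.01 in vehicle (log2, SD, n = 6). They changed by -0.51 and -0.77, and the median change of the list was -0.31. Only 1 of the 8, Elane, was below the negative control median throughout. Of 7 stem and progenitor markers 2 rose and 2 fell, with mean signals of 8.28 to 8.40 and 8.24 to 8.43; Mecom, Hlf and Flt3 were below the negative control median throughout. Erythroid markers gave 1 fall among 4 tested, that of Tfrc (-0.65), and the other 3 did not pass. Their mean signal was 7.74 to 7.94 and 7.67 to 7.74, lower in 6 of 6 cultures (-0.13 on average). That mean includes Tfrc, the largest change of the list, and the median change was -0.08. Mast cell and basophil markers gave 2 rises and 1 fall among 6. The part of neutrophil, endothelial, erythroid, stem or mast cells in the changes of Ets1, Ets2 and Elf1 was not tested.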

How the data were processed

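Gene expression was measured on 12 arrays with 1 colour, labelled with biotin after amplification of 50 ng of RNA per the labels' protocols. The values deposited by the authors are log2 signals of 72688 probe sets; the scale was read from the values, and the sources used here do not give the background correction, normalization or summarization. Array medians lay within 0.10 of each other, so values were used as deposited. Gene symbols came from the platform annotation, updated through RefSeq (GRCm38.p6) for 827 probe sets. Probe sets with several symbols, 2146 in all, were not named. For a gene with several probe sets the one of highest mean was kept, and genes were tested where they exceeded the 25th percentile of an array on 6 arrays or more.

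Treatments were compared with limma 3.58.1 under R 4.3.3 (lmFit, eBayes; culture as block; two-sided; Benjamini-Hochberg over 24265 genes). The block follows the treatment protocol, which divided each culture; same-numbered arrays deviated together with a mean correlation of 0.157, against -0.032 for others, and 4 of 6 pairs were over 0.1. Pairs of genes were compared with an exact sign-flip test over cultures. The fit was tested on simulated data with known changes. Alternatives were 2 other normalizations, 3 other filters on dim probe sets, a floor, 2 other treatments of the block, trend and robust options, all probe sets together, the mean over a gene's probe sets, and leaving out each culture. The members and lists were chosen with earlier results of these data known. Named were all 10 members, up to 4 called genes per list, the bright ETS and Ikaros relatives and the 5 genes most like Ets1 and Ets2; other genes named were chosen after their values were seen. The number of arrays limits the precision.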

Additional observations from a re-analysis of the deposited data

How the results depend on the processing

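Ets1 was called under all 17 other settings (adjusted p 1.57e-05 to 0.00336) and Ets2 under the 16 that tested it (0.00146 to 0.0436); a filter at the negative control median leaves Ets2 out. The number of transcription factors called ranged from 2 to 4, 3 without the replicate block. Elf1 was lost with centring on array medians (adjusted p = 0.0788), with all probe sets (0.0821) and without replicate 1, 3, 4, 5 or 6. The 16 calls over the other 6 lists became 7 when every probe set was fitted together, where 55032 features were tested, and 7 to 23 over all settings; leaving out a culture gave 7 to 12 calls, the lowest (8, 7 and 8) without culture 2, 3 or 4, and the cause was not tested. Without the replicate block, gene pairs compared by an exact permutation test gave -0.81 for Ets1 minus Ets2 (adjusted p = 0.00541), -0.43 for Ets1 minus Fli1 (0.00541) and 0.33 for Ets2 minus Erg (0.0216), now past the threshold. That test drops the pairing of the treatment protocol, and Ets2 was under the negative control median throughout. With 5 cultures no sign-flip p can fall below 0.0625. Higher genes were 1794 of 2900 calls as deposited, against 1417 of 3155 after quantile normalization and 1718 of 2444 after centring, and the all-gene count without the block was 1534 higher and 918 lower. Dim signal limits Ets2, Erg and Ets1.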
